A study of Mus musculus with 24 samples.

Results

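The PDZ-LIM family of the muscle Z-disc was followed here through its 7 mouse genes, Pdlim1, Pdlim2, Pdlim3, Pdlim4, Pdlim5, Pdlim7 and Ldb3, taken by symbol from a table of 47643 Ensembl gene IDs. The table held read counts of plantaris muscle, a fast hindlimb muscle, from wild type C57BL/6 mice. In 11 samples the mice had been kept in normal air, and in 13 they had been exposed to tobacco smoke for 16 weeks. Age, sex and the time of day of collection were not given in the labels. The family was selected on the smoke against air counts of Pdlim1 in these samples, which were known to be lower under smoke, so its own difference is given as a description without a p-value, while the other 6 genes were taken for their family name. The series title concerns chronic activity of the aryl hydrocarbon receptor (AhR), a ligand-activated transcription factor with ligands in tobacco smoke. The comparison of the groups asks how the transcripts of the family differ after smoke exposure.

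PDZ-LIM proteins carry a PDZ domain near the amino terminus, which binds the ends of partner proteins such as alpha-actinin, and zinc-binding LIM domains towards the carboxy terminus, which bind kinases and other signalling proteins. Pdlim1 to Pdlim4 form the ALP group, with a single LIM domain, and Pdlim5, Pdlim7 and Ldb3 form the Enigma group, whose full-length forms carry several. In striated muscle they sit on the Z-disc, where alpha-actinin crosslinks the actin filaments of neighbouring sarcomeres. Mutations of LDB3, also called ZASP or Cypher, cause myopathy and cardiomyopathy in people.

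Reads came from the 3′ end of transcripts, so that values are given as CPM, read counts scaled to a common library total with the TMM factors of edgeR, and were not divided by gene length. They compare transcript numbers between genes only as far as the annotated 3′ ends hold. Total counts ranged from 2515697 to 4528845 per sample, and 3 counts corresponded to 0.665 to 1.15 CPM. All 7 members passed the expression filter and had at least 27 counts in every sample. The defining transcripts of fast fibres, 8 genes that include Myh4, summed to between 92790 and 151000 CPM in every library. One air library, replicate 11, had the lowest TMM factor of all samples (0.857, the others in air and smoke lying between 0.904 and 1.07), and results that rest on it are given with and without it where both were computed. The p-values measure the spread between the samples of a group, which the labels number as replicates without naming animals.

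The promoters of Pdlim1, which was lower under smoke, and of Ldb3, the most abundant member, are shown because the study concerns AhR and both windows hold the AhR core GCGTG, read on either strand and set in capitals. Each is the 250 bases before the annotated start, 5′ to 3′ on the strand of the gene, from RefSeq on GRCm38.p6.
Pdlim1, chr19:40271617-40271866, minus strand: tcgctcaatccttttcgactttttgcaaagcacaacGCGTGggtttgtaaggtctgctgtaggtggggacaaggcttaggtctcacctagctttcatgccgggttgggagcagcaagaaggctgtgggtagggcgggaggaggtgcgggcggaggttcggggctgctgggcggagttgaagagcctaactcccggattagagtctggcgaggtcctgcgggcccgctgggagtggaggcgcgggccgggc
Ldb3, chr14:34588682-34588931, minus strand: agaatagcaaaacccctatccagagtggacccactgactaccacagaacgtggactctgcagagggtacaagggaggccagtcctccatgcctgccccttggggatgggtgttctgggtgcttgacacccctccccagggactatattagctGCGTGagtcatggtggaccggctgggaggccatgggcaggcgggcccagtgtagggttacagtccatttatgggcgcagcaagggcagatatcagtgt

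RefSeq windows were found for 6 of the 7 members, all but Pdlim2, and 4 members had at least 1 AhR core (Pdlim1, Pdlim5, Pdlim7 and Ldb3). Of 32851 promoter windows of the same length, 28.2% held at least 1 such core, a share of windows and not of genes. The member windows with a core had 58.4% to 68.4% G or C bases, beside a median of 52.4% over all windows. An excess of cores in the family was not tested. The first-listed Pdlim5 window held 2 cores. The clock E-box CACGTG, present in 6.02% of all windows, was in no window of a member. The D-box TTANGTAA, present in 2.06%, was in the Pdlim3 window, and the CArG box, present in 1.47%, was in both overlapping Ldb3 windows. The MEF2 site, present in 2.92%, was in none. These matches describe letters in a short window and not binding.

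In air, the members were expressed at very different levels. Ldb3 had 942 ± 61.7 CPM (SD, n = 11) and made up 53.6% of the family's reads, and Pdlim3, which encodes ALP itself, had 482 ± 42.5 CPM and made up 27.5%. Pdlim5 (136 ± 49.9 CPM) and Pdlim7 (122 ± 13.9 CPM), which encode the Enigma homologue ENH and Enigma, followed at a similar level. Pdlim1, which encodes CLP36, had 51.3 ± 6.39 CPM. Pdlim2, also called Mystique, had 12.8 ± 3.37 CPM and Pdlim4, also called RIL, had 12.1 ± 1.77 CPM.

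The order was compared between neighbours within samples, by 12 exact two-sided sign-flip tests on log2 CPM over both groups. In air, Ldb3 exceeded Pdlim3 by 1.96-fold, Pdlim3 exceeded Pdlim5 by 3.80-fold, Pdlim7 exceeded Pdlim1 by 2.37-fold and Pdlim1 exceeded Pdlim2 by 3.95-fold. Each of these held in 11 of 11 samples, with ranges that did not overlap (exact p = 0.000977, the smallest that 11 samples can give, Benjamini-Hochberg adjusted p = 0.00147). Pdlim5 and Pdlim7 did not differ beyond their spread in air (1.04-fold, higher in 7 of 11 samples, exact p = 0.824, adjusted p = 0.824). Neither did Pdlim2 and Pdlim4 (1.04-fold, higher in 5 of 11 samples, exact p = 0.731, adjusted p = 0.797). Air replicate 11 had Pdlim5 at 42.2 CPM and Pdlim7 at 141 CPM, and the comparisons of Pdlim5 with its neighbours were not made without it. Under smoke, Pdlim5 stood above Pdlim7 by 1.34-fold in 11 of 13 samples (exact p = 0.00391, adjusted p = 0.00521). Whether this gap differed between air and smoke was not tested. Ldb3, Pdlim3, Pdlim5, Pdlim7 and Pdlim1 followed each other in the same order under smoke, and below them Pdlim4 and Pdlim2 were again not distinguished, now with Pdlim4 first by its mean (1.03-fold, higher in 7 of 13 samples, exact p = 0.621, adjusted p = 0.745).

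**Figure D1:**
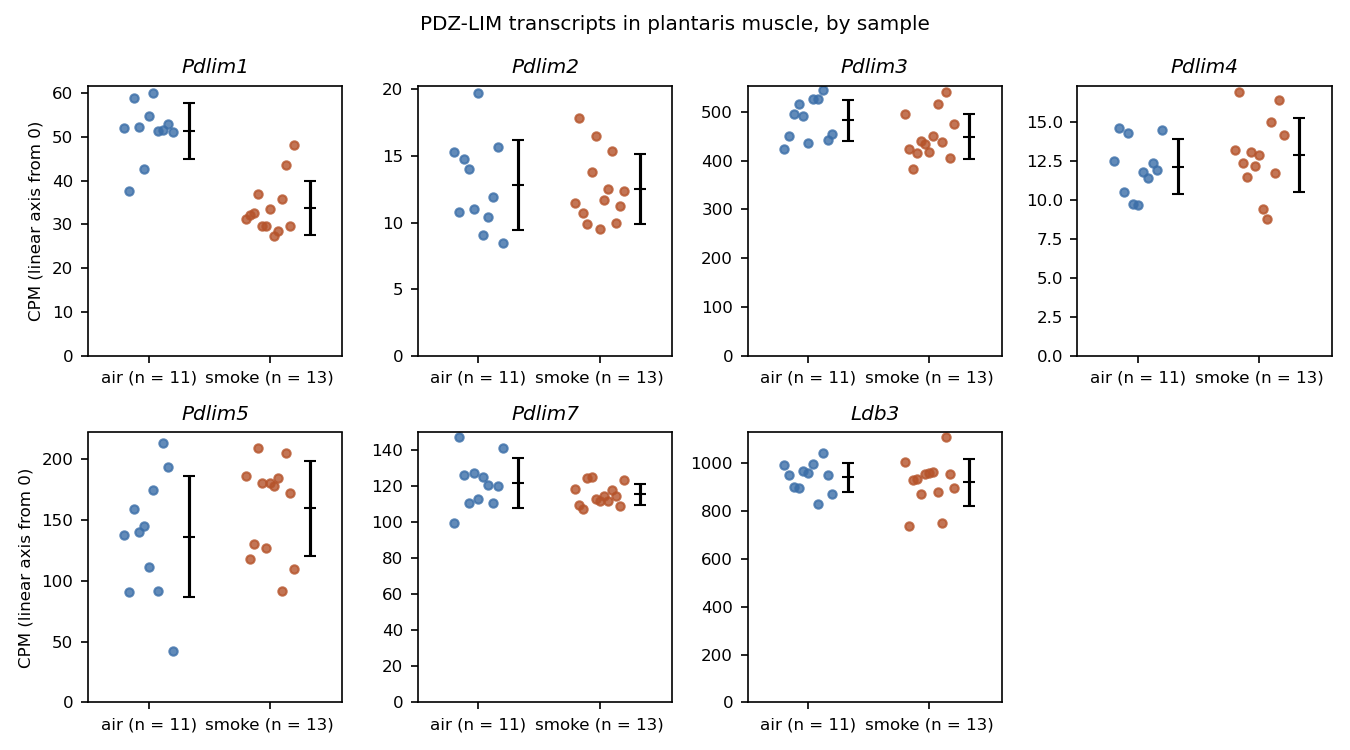
CPM of each member (y axis, linear from 0) in 11 air and 13 smoke samples, 1 point per sample, with the mean and SD to the right of each group. Pdlim1 lies at 27.3 to 48.2 CPM under smoke against 37.5 to 59.9 CPM in air. The ranges of the groups overlap for Pdlim1 and for each of the other 6 members.

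Pdlim1 encodes an adaptor that binds alpha-actinin at the Z-disc and on stress fibres. It spans chromosome 19 from 40221173 to 40271842 on the minus strand (GRCm38, GENCODE M21), with no annotated overlapping gene. Its air samples ran from 37.5 to 59.9 CPM with a median of 51.9, and its smoke samples from 27.3 to 48.2 CPM with a median of 32.2. Of the smoke samples 11 of 13 lay below the lowest air sample, and replicates 11 (43.5 CPM) and 13 (48.2 CPM) lay within the air range. Of the air samples 9 of 11 lay above the highest smoke sample, and replicates 2 (37.5 CPM) and 5 (42.7 CPM) did not. The mean was 51.3 ± 6.39 CPM in air and 33.7 ± 6.12 CPM (SD, n = 13) under smoke, a difference of −0.61 on the log2 scale (SE 0.086, smoke minus air), or −34.3%. Its share of the family's reads was 2.92 ± 0.368% in air and 1.99 ± 0.371% under smoke. Counting error alone, from at least 77 counts per sample, would give a spread of 7.43% in air and 9.31% under smoke, against an observed SD of 12.4% and 18.1% of the mean.

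Across the 7 members, 1 was called at an adjusted p under 0.05 (edgeR quasi-likelihood, Benjamini-Hochberg over 10159 tested genes), and it was Pdlim1. Over all tested genes 1.92% were called, 1.19% lower and 0.728% higher. Since the choice of the family used this contrast, nothing is read from that count. The median log2 fold change of the members was −0.042, beside 0.0066 over all tested genes, and 5 of 7 were negative, beside 48.4% of all tested genes. Both values include Pdlim1, on which the family was selected, so nothing is read from them either.

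**Figure D2:**
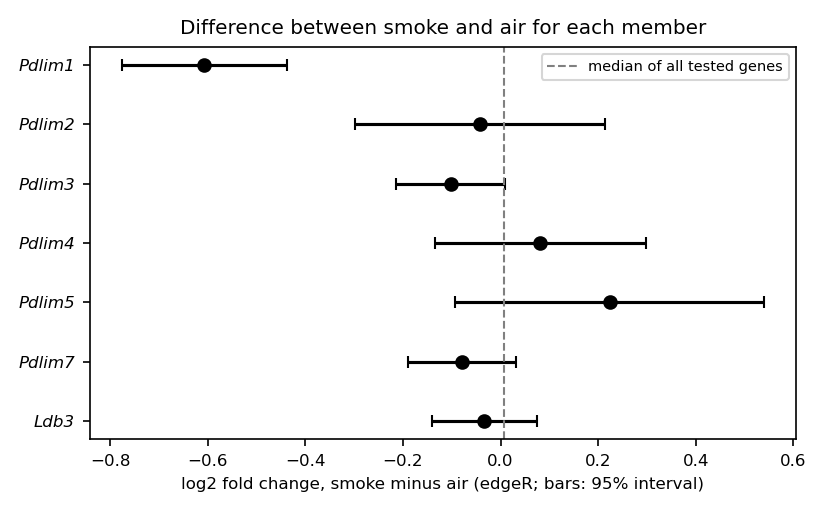
Log2 fold change of smoke against air for each member (x axis), with bars of the 95% normal interval, and the median of all tested genes as a dashed line at 0.0066. Pdlim1 stands at −0.61, and the bars of the other 6 members cross 0.

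Among the other members of the ALP group, Pdlim3 (chromosome 8, 45885461 to 45919548, plus strand) had a median of 491 CPM in air, from 424 to 545, and of 438 CPM under smoke, from 384 to 541. The groups overlapped, although 4 of 13 smoke samples lay below the lowest air sample. Smoke minus air was −0.10 on the log2 scale (SE 0.057; adjusted p = 0.399 by edgeR), with a 95% normal interval from −0.21 to 0.0089.

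Pdlim2 (chromosome 14, 70164218 to 70177681, minus strand), which in immune cells takes part in the degradation of transcription factors, ran from 8.50 to 19.7 CPM in air with a median of 11.9. Under smoke it ran from 9.54 to 17.9 CPM with a median of 11.7. The ranges overlapped almost fully, and smoke minus air was −0.042 on the log2 scale (SE 0.13; adjusted p = 0.923 by edgeR; interval −0.30 to 0.21). Pdlim4 (chromosome 11, 54054928 to 54069014, minus strand), an adaptor that binds alpha-actinin and actin stress fibres, ran from 9.68 to 14.6 CPM in air with a median of 11.95. Under smoke it ran from 8.80 to 16.9 CPM with a median of 12.9. The groups overlapped, and smoke minus air was 0.082 on the log2 scale (SE 0.11; adjusted p = 0.788 by edgeR; interval −0.13 to 0.30). These genes rested on 27 to 59 and 28 to 58 counts per sample. Counting error alone would give Pdlim2 a spread of 14.9% in air and 15.4% under smoke, against an observed SD of 26.2% and 20.9% of the mean, and Pdlim4 15.3% and 15.2%, against 14.6% and 18.4%.

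In the Enigma group, Ldb3 (chromosome 14, 34526603 to 34588682, minus strand) ran from 829 to 1042 CPM in air with a median of 950 and from 740 to 1111 CPM under smoke with a median of 936. The 2 lowest smoke samples, replicates 2 (740 CPM) and 10 (753 CPM), lay below every air sample, and the highest smoke sample lay above every air sample. Smoke minus air was −0.033 on the log2 scale (SE 0.055; adjusted p = 0.838 by edgeR; interval −0.14 to 0.075), the narrowest interval of the 7. Ldb3 has short forms without LIM domains, and its 7 protein-coding transcripts end at 6 places more than 100 bases apart. Their reads were added in the deposited table, so that a shift between forms would not show.

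Pdlim7 (chromosome 13, 55495795 to 55513676, minus strand) ran from 99.4 to 147 CPM in air with a median of 121 and from 107 to 125 CPM under smoke with a median of 115. All smoke samples lay inside the air range. Smoke minus air was −0.079 on the log2 scale (SE 0.056; adjusted p = 0.548 by edgeR; interval −0.19 to 0.032). The spread of Pdlim7 was 11.4% of the mean in air and 5.15% under smoke, where counting error alone would give 5.03%. In smoke, 0.658% of 1216 genes within 2-fold of its level had a smaller spread, and in air 48.2% of 1174 did. The exons of Pdlim7 overlap the microRNA gene Mir6945 on the same strand, whose reads cannot be told apart in these counts.

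Pdlim5 (chromosome 3, 142239590 to 142395696, minus strand), an adaptor that links protein kinase C to its targets in muscle, was the most variable member. It ran from 42.2 to 214 CPM in air with a median of 140 and from 91.9 to 209 CPM under smoke with a median of 178. The lowest value, 42.2 CPM, was that of air replicate 11, and the next in air was 90.7 CPM in replicate 2. Its SD was 36.6% of the mean in air and 24.3% under smoke, where counting error alone would give 4.49% and 4.25%. Of the genes within 2-fold of its level, 99.3% of 1091 in air and 97.3% of 946 under smoke had a smaller spread. Smoke minus air was 0.22 on the log2 scale (SE 0.16; adjusted p = 0.553 by edgeR; interval −0.093 to 0.54), and without air replicate 11 it was 0.12 (SE 0.13; adjusted p = 0.714 by edgeR). Pdlim5 has 12 protein-coding transcripts that end at 7 places more than 100 bases apart, up to 63738 bases from each other.

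Pdlim5 also stood apart in how many genes varied with it. Over 24 samples, with the group means removed, 110 of 4021 genes with a mean of at least 20 CPM had a Pearson's r over 0.8 with Pdlim5, and 30 did without air replicate 11. For each of the other 6 members there were 0 such genes. The most alike were Hsp90b1, a chaperone of the endoplasmic reticulum (r = 0.94, and 0.90 without air replicate 11), and Eif4a2, a translation initiation factor (r = 0.93, and 0.88). Hsp90b1 ran from 46.9 to 111 CPM in air and from 71.8 to 105 CPM under smoke. Hsp90b1 and Eif4a2 were lowest in air replicate 11 within air and in smoke replicate 10 within smoke, the libraries with the lowest TMM factors of their groups (0.857 and 0.904), where Pdlim5 was also lowest. Both genes overlap other annotated genes. In air, Pdlim5 and the TMM factor had r = 0.82 (permutation p = 0.0110, adjusted p = 0.257 over 70 relations, n = 11) and rho = 0.55 (permutation p = 0.0870, adjusted p = 0.609), and leaving out the 2 samples with the most extreme factors gave r = 0.52. Under smoke r was 0.49 (permutation p = 0.0860, adjusted p = 0.486, n = 13) with rho = 0.36 (permutation p = 0.225, adjusted p = 0.716), and 0.28 with 2 samples left out. The part of the library in the variation of Pdlim5 was not tested.

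**Figure D3:**
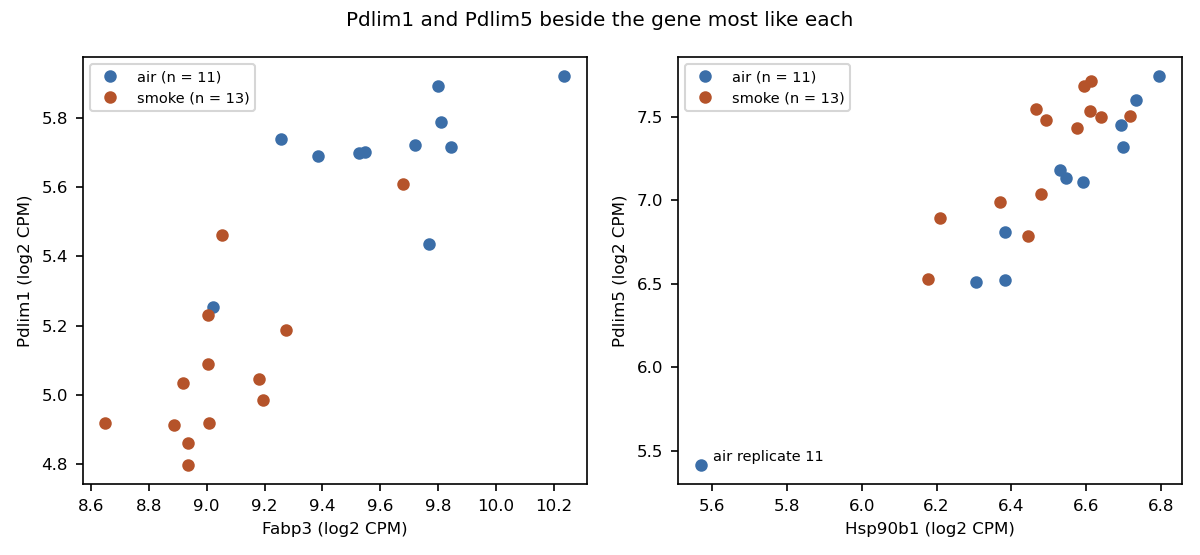
Log2 CPM of Pdlim1 against Fabp3 (left) and of Pdlim5 against Hsp90b1 (right), 1 point per sample, in 11 air and 13 smoke samples. Air replicate 11 lies far below the rest on the right, and the remaining points keep their order (r = 0.90 without it).

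For Pdlim1, the 5 genes most alike within groups were Fabp3, a fatty acid carrier of muscle (r = 0.66 over 24 samples with group means removed), Ppp1r27, a phosphatase subunit (r = 0.66), Cryab, a small heat shock protein of the Z-disc (r = 0.64), Lmcd1, a LIM-domain protein (r = 0.63), and Podxl, a sialomucin (r = 0.62). With Fabp3 r was 0.65 in air and 0.71 under smoke, with Ppp1r27 0.68 and 0.65, and with Lmcd1 0.52 and 0.68. The gap between groups was wider with Cryab, at 0.38 and 0.83, and with Podxl, at 0.86 and 0.44, and no such difference was tested. Fabp3, Cryab and Lmcd1 overlap genes on the opposite strand, and Lmcd1 also another on its own strand. These are the highest of 4021 values and are given as a description, without a p-value.

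For the other members the 2 most alike genes were Mbp (r = 0.76) and Pank3 (r = 0.72) for Pdlim2 and Flnc (r = 0.68) and Nfu1 (r = 0.66) for Pdlim3, while for Pdlim4 only the most alike, Tcirg1 (r = 0.70), is given. For Pdlim7 they were Mrps12 (r = 0.74) and Upf1 (r = 0.71), and for Ldb3 Plpp1 (r = 0.74) and Rnf128 (r = 0.72). Mbp encodes a protein of myelin, and Flnc encodes filamin C, an actin crosslinker of the Z-disc.

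Whether the members moved together from sample to sample was asked pair by pair. With 11 and 13 samples, a pair that is not called may still vary together. Over the 21 pairs in each group, 42 relations in all, 0 passed Benjamini-Hochberg adjustment by Pearson's r (permutation, smallest adjusted p = 0.176) or by Spearman's rho (smallest adjusted p = 0.450), and 5 and 4 had an unadjusted p under 0.05. Pdlim5 and Ldb3, both of the Enigma group, had the highest r in each group. In air r was 0.63 (permutation p = 0.0373, adjusted p = 0.391, n = 11) with rho = 0.63 (permutation p = 0.0450, adjusted p = 0.450), and leaving out the 2 most extreme samples of Pdlim5 gave r = 0.69. Under smoke r was 0.69 (permutation p = 0.00867, adjusted p = 0.176, n = 13) with rho = 0.53 (permutation p = 0.0643, adjusted p = 0.450), and 0.57 with 2 samples left out. Pdlim5 also had the second lowest r, −0.67 with Pdlim2 under smoke (permutation p = 0.0126, adjusted p = 0.176, n = 13) with rho = −0.59 (permutation p = 0.0348, adjusted p = 0.450), and −0.61 with 2 samples left out.

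The lowest r was that of Pdlim2 and Ldb3 under smoke, at −0.72 (permutation p = 0.00528, adjusted p = 0.176, n = 13) with rho = −0.65 (permutation p = 0.0183, adjusted p = 0.450), and −0.79 with 2 samples left out. In air the same pair had r = 0.20 (permutation p = 0.553, adjusted p = 0.750, n = 11) and rho = 0.24 (permutation p = 0.489, adjusted p = 0.732). Smoke replicate 12 had a myelin score (the mean log2 CPM of 8 myelin genes) of 5.54, with Ldb3 at 958 CPM and Pdlim2 at 11.3 CPM. Smoke replicates 2 and 10 had the highest scores of their group (5.81 and 5.57, the latter close to that of replicate 12). These 2 were the lowest Ldb3 samples and among the 3 highest of Pdlim2 (17.9 and 15.4 CPM). With both left out, an alternative chosen after the data were seen, r was −0.42 for Pdlim2 and Ldb3 (permutation p = 0.201, adjusted p = 0.729, n = 11; rho = −0.48, permutation p = 0.139, adjusted p = 0.732). It was −0.50 for Pdlim2 and Pdlim5 (permutation p = 0.119, n = 11; rho = −0.41, permutation p = 0.214) and 0.36 for Pdlim5 and Ldb3 (permutation p = 0.276, n = 11; rho = 0.27, permutation p = 0.419), with the same adjusted values. Pdlim1 had r between −0.46 and 0.37 with the other members in both groups. All values share the scaling of their libraries.

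**Figure D4:**
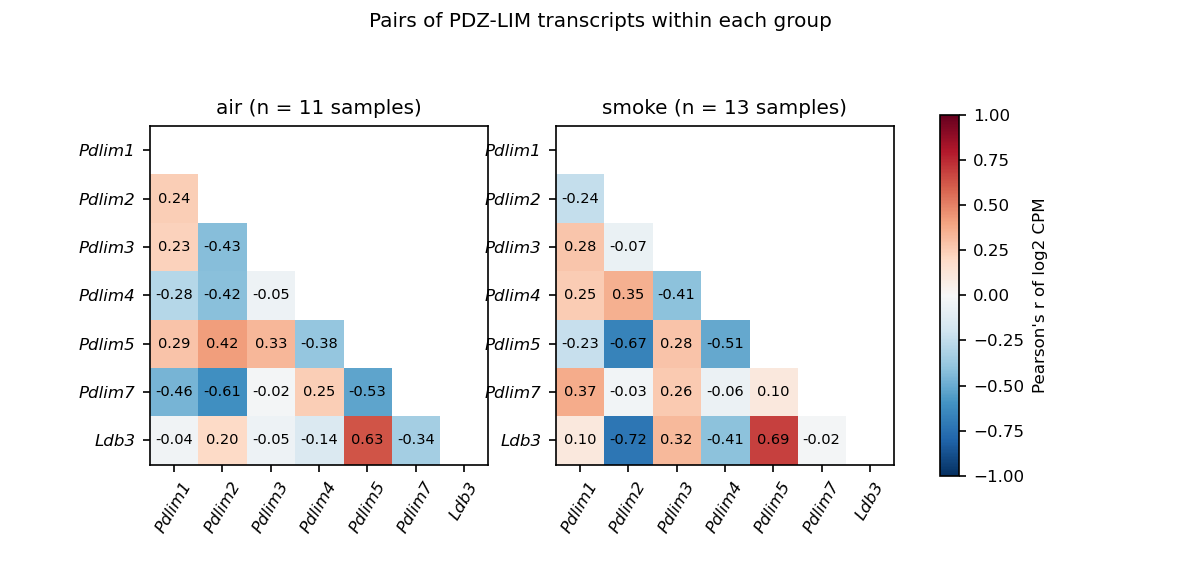
Pearson's r of log2 CPM for each pair of members within air (left, 11 samples) and smoke (right, 13 samples), coloured from −1 to 1. Pdlim5 with Ldb3 is the highest in both (0.63 and 0.69), and the Pdlim1 column stays between −0.46 and 0.37.

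Bulk muscle holds several fibre types and other cells, and fewer cells of a type and less RNA per cell cannot be told apart. Members were therefore set beside 5 marker scores (slow fibre, fast type 2B fibre, smooth muscle, endothelium, fibroblast), 70 relations over both groups, of which 0 passed adjustment by r (permutation, smallest adjusted p = 0.157) or rho (smallest adjusted p = 0.0896), and 3 and 4 had an unadjusted p under 0.05. The largest was Pdlim7 with the type 2B score in air, r = 0.81 (permutation p = 0.00268, adjusted p = 0.157, n = 11) and rho = 0.86 (permutation p = 0.00128, adjusted p = 0.0896), and 0.74 with 2 samples left out. Under smoke r was −0.30 (permutation p = 0.326, adjusted p = 0.788, n = 13) and rho was −0.36 (permutation p = 0.223, adjusted p = 0.916). This score averages 8 fast fibre genes, among them Myh4 and Actn3, and so does not tell type 2B from other fast fibres. Pdlim2 with the same score in air had r = −0.76 (permutation p = 0.00448, adjusted p = 0.157, n = 11) and rho = −0.78 (permutation p = 0.00651, adjusted p = 0.228), and r stayed at −0.76 with 2 samples left out. Under smoke Pdlim2 had r = 0.13 with this score (permutation p = 0.6725, adjusted p = 0.869, n = 13) and rho = −0.022 (permutation p = 0.949, adjusted p = 0.992). Pdlim1 had r between −0.48 (type 2B score under smoke, permutation p = 0.0968, adjusted p = 0.769, n = 13; rho = −0.23, permutation p = 0.447) and 0.48 (smooth muscle score in air, permutation p = 0.143, adjusted p = 0.788, n = 11; rho = 0.22, permutation p = 0.521) over the 10 relations with these scores. With the slow fibre score r was 0.049 in air and 0.094 under smoke (permutation p = 0.890 and 0.757).

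Blood and myelin scores were added after the data were seen, as 28 more relations. Of these 0 passed adjustment by r (permutation, smallest adjusted p = 0.0629) or rho (smallest adjusted p = 0.246), and 5 and 4 had an unadjusted p under 0.05. Those 5 were all with the myelin score. Pdlim2 had r = 0.79 in air (permutation p = 0.00284, adjusted p = 0.0629, n = 11; rho = 0.64, permutation p = 0.0409, adjusted p = 0.286), and 0.73 with 2 samples left out. Under smoke it had r = 0.74 (permutation p = 0.00449, adjusted p = 0.0629, n = 13; rho = 0.63, permutation p = 0.0241, adjusted p = 0.246), and 0.49 with 2 left out. Pdlim4 under smoke had r = 0.69 (permutation p = 0.00867, adjusted p = 0.0809, n = 13; rho = 0.62, permutation p = 0.0264, adjusted p = 0.246), and 0.51 with 2 left out. Ldb3 and Pdlim5 under smoke had r = −0.62 and −0.61 (permutation p = 0.0233 and 0.0254, adjusted p = 0.142 for both, n = 13; rho = −0.52 and −0.64, permutation p = 0.0736 and 0.0215), and −0.057 and −0.31 with 2 left out. Pdlim1 had r between −0.49 (blood score in air, permutation p = 0.119, adjusted p = 0.477, n = 11; rho = −0.35, permutation p = 0.299) and 0.39 (myelin score in air, permutation p = 0.227, adjusted p = 0.579, n = 11; rho = 0.41, permutation p = 0.212).

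Marker lists of other cells and fibres were set beside the same contrast, in which 1.92% of all tested genes were called, 1.19% lower and 0.728% higher. Of 12 endothelial genes 1 was called, Eng, an endothelial receptor, which fell from 22.7 ± 4.71 to 13.8 ± 4.001 CPM (−0.72 on the log2 scale, SE 0.13; adjusted p = 0.00231 by edgeR), and the summed level of the list ran from 430 to 553 CPM in air and from 425 to 516 under smoke. Eng overlaps 3 other annotated genes on the same strand and Fpgs on the other, and it lost its call with the clock index (−0.65; adjusted p = 0.237 by edgeR) and with Myh2 (−0.51; adjusted p = 0.121 by edgeR) as a covariate. Of 10 slow fibre genes and of 8 smooth muscle genes 0 were called, with 3 (Myl2, Atp2a2 and Myl3, all with lower means under smoke) and 1 (Myh11, with a higher mean) at an unadjusted p under 0.05, a level that 15.5% of all tested genes reached. Slow fibre genes summed to between 604 and 1078 CPM in air and between 586 and 1062 under smoke, and smooth muscle genes to between 724 and 915 CPM and between 711 and 1003. Of 8 blood genes 3 were lower (the globins Hbb-bs, Hbb-bt and Hba-a2, near-identical copies of one another or of Hba-a1 whose separate counts are uncertain), with sums of 546 to 1540 CPM in air and 453 to 951 under smoke. Of 8 myelin genes 3 were higher, with sums of 174 to 398 CPM and 249.3 to 970. All 8 blood genes had negative and all 8 myelin genes positive log2 fold changes. An unadjusted p under 0.05 (edgeR) was reached by 4 blood, 6 myelin, 3 endothelial and 4 adipocyte genes. Of 8 type 2B genes 0 were called, with 1 at an unadjusted p under 0.05, Myh4, the myosin of these fibres, which stood at 0.16 on the log2 scale (edgeR, p = 0.0246 before adjustment). Of 10 fibroblast genes 0 were called, with 3 (Dpt, Col1a1 and Col3a1, all with lower means under smoke) at an unadjusted p under 0.05, beside the same 15.5%, and of 8 adipocyte genes 1 was lower. Adding a slow fibre, smooth muscle, endothelial, blood or myelin score to the edgeR fit left the log2 fold change of Pdlim1 at −0.60, −0.68, −0.57, −0.66 and −0.63. The myelin score moved that of Pdlim2 from −0.042 to −0.34 (SE 0.13; adjusted p = 0.250 by edgeR) and that of Pdlim4 from 0.082 to −0.058 (SE 0.13; adjusted p = 0.925 by edgeR), neither of them called. The same score moved Pdlim5 from 0.22 to 0.43 (SE 0.18; adjusted p = 0.332 by edgeR) and Pdlim3 from −0.10 to −0.037 (SE 0.067; adjusted p = 0.899 by edgeR). The part of these cells in the difference of Pdlim1 was not tested beyond these fits.

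Myh2, the myosin of type 2A fibres, ran from 3116 to 4943 CPM in air and from 2555 to 4492 CPM under smoke, a difference of −0.27 on the log2 scale (SE 0.077) that missed the threshold (adjusted p = 0.0627 by edgeR). It passed with DESeq2 (adjusted p = 0.0379), with voom (adjusted p = 0.0488, limma), with no filter on low counts (adjusted p = 0.0448, edgeR), with the smooth muscle score (adjusted p = 0.0358, edgeR) and in 4 of the 24 fits that left out 1 sample. Pdlim1 and Myh2 had r = 0.74 under smoke (permutation p = 0.00359, adjusted p = 0.221 over 70 relations, n = 13) with rho = 0.46 (permutation p = 0.118, adjusted p = 0.643), and r was 0.47 with the 2 most extreme samples of Myh2 left out. In air r was 0.30 (permutation p = 0.363, adjusted p = 0.771, n = 11) and rho was 0.46 (permutation p = 0.156, adjusted p = 0.659). With Myh2 as a covariate the log2 fold change of Pdlim1 was −0.45 (SE 0.090). A clock index, the z scores of Dbp and other clock output genes minus those of Nfil3 and other genes of the opposite phase, ran from −1.66 to 0.27 in air with a median of −0.76 and from −1.24 to 1.96 under smoke with a median of 0.69. With it as a covariate Pdlim1 stood at −0.51 (SE 0.13) and was no longer called, and 2 genes were called in all. Of the 12 tested genes of the index 4 were themselves called in this contrast (Nfil3 lower, and Dbp, Per3 and Nr1d2 higher). The index thus carries part of the contrast itself, and nothing is read from calls lost with it. The group and the index cannot be told apart fully in these samples. Within groups, Pdlim1 and the index had r = 0.14 in air (permutation p = 0.694, adjusted p = 0.908, n = 11) with rho = −0.045 (permutation p = 0.904, adjusted p = 0.952), and r = −0.41 under smoke (permutation p = 0.168, adjusted p = 0.545, n = 13) with rho = −0.21 (permutation p = 0.482, adjusted p = 0.854). With the 2 most extreme samples of the index left out, r was −0.076 in air and 0.21 under smoke. The smoke library with the lowest index, replicate 11, had the second highest Pdlim1 level of its group.

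**Figure D5:**
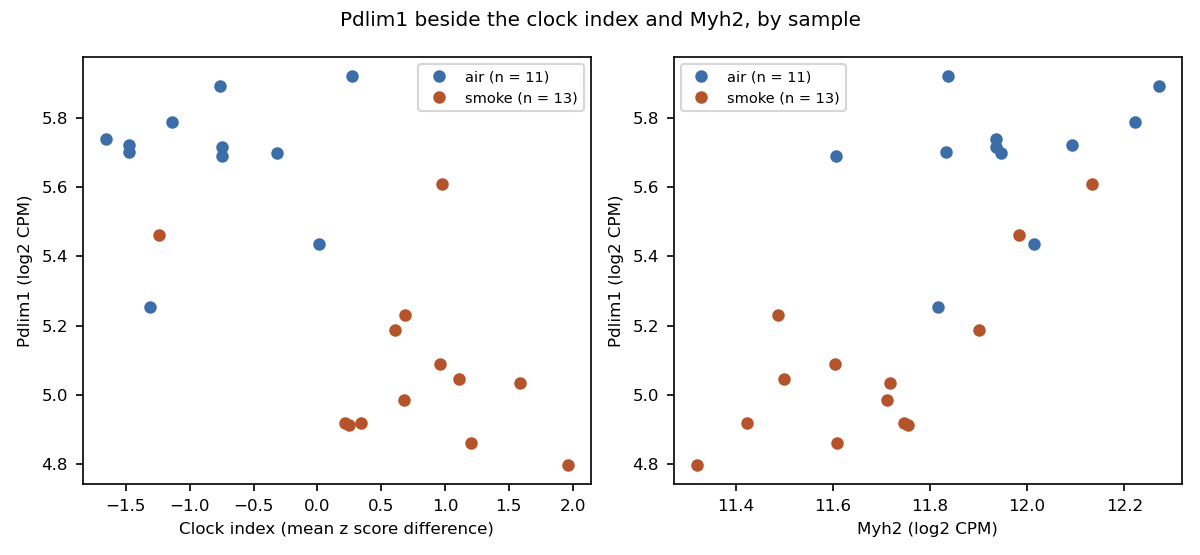
Log2 CPM of Pdlim1 (y axis) against the clock index (left) and log2 CPM of Myh2 (right), 1 point per sample, in 11 air and 13 smoke samples. Within each group Pdlim1 shows no steady slope against the index (r = 0.14 and −0.41), and under smoke the 2 highest Pdlim1 samples also have the highest Myh2.

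The partners of the family were described from 3 lists. The PDZ domains bind alpha-actinin, and of its genes Actn2, the form of all striated fibres, fell from 435 ± 28.8 to 373 ± 47.8 CPM (−0.22 on the log2 scale, SE 0.060; adjusted p = 0.0407 by edgeR), with ranges of 393 to 475 and 304 to 455 CPM that overlapped. The call was close to the threshold, and Actn2 was called in 8 of the 24 fits that left out 1 sample, with an adjusted p from 0.0155 to 0.0745. Actn3, the form of fast fibres, had 2479 ± 546 and 2750.0 ± 251.8 CPM (0.15 on the log2 scale; adjusted p = 0.352 by edgeR). The non-muscle forms Actn1 and Actn4 stood at 0.22 and −0.21 on the log2 scale (adjusted p = 0.416 and 0.493 by edgeR), and both overlap other genes. Of 14 tested binding partners 1 was called, with a median log2 fold change of 0.0055, beside 0.0066 over all tested genes.

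Of 22 other Z-disc genes 4 were called, 3 lower and 1 higher, with a median of −0.052. Csrp3, the muscle LIM protein, ran from 169 to 286 CPM in air and from 75.2 to 362 CPM under smoke, with smoke the wider (−0.70 on the log2 scale, SE 0.16; adjusted p = 0.0142 by edgeR). Xirp1, an actin-binding repeat protein, fell from 43.0 ± 13.1 to 26.4 ± 10.5 CPM (−0.71 on the log2 scale, SE 0.16; adjusted p = 0.0142 by edgeR). It overlaps Cx3cr1 on the same strand. Bag3, a co-chaperone, fell from 321 ± 23.8 to 278 ± 24.2 CPM, and Ky, a Z-disc protein needed for muscle upkeep, rose from 97.0 ± 21.03 to 129 ± 21.4 CPM. Bag3 overlaps another gene on the same strand, and lost its call without air replicate 3 or smoke replicate 6 (highest adjusted p = 0.0520, edgeR) and in 6 of the 12 other alternatives, among them no filter on low counts (adjusted p = 0.0591, edgeR).

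Of 25 other LIM-domain genes 3 were called, all lower, with a median of −0.031. Besides Csrp3, which is in both lists, they were Fhl1, a four-and-a-half LIM protein, with 1694 ± 290 and 1315 ± 211 CPM (−0.37 on the log2 scale, SE 0.084; adjusted p = 0.0143 by edgeR), and Lasp1, a LIM and SH3 protein of actin filaments, with 42.2 ± 4.54 and 35.1 ± 4.27 CPM (−0.27 on the log2 scale, SE 0.073; adjusted p = 0.0481 by edgeR). Lasp1 was called in 7 of the 24 fits that left out 1 sample, with an adjusted p from 0.0235 to 0.0848. Csrp3, Xirp1, Ky and Fhl1 were called in all 24. Over the 12 other alternatives Csrp3, Xirp1 and Fhl1 were called in 8 each, Ky in 7, and Actn2 and Lasp1 in 5 each. With the clock index or Myh2 as a covariate none of the 7 genes called in these lists was called, and the differences were smaller, that of Csrp3 being −0.25 and −0.40 on the log2 scale. With the myelin score Csrp3, Fhl1, Ky, Xirp1, Bag3 and Actn2 were not called, and with the blood score Csrp3, Fhl1, Ky, Bag3, Actn2 and Lasp1 were not. There the differences stayed near their size without a score, that of Csrp3 being −0.66 and −0.65 and that of Ky 0.44 and 0.40, with larger SEs. Over the 59 genes of the 3 lists 7 were called (11.9%), beside 1.92% of all tested genes. The lists were chosen with results of these data known, so that this share is a description and not independent evidence.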

How the data were processed

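Per the labels' protocols, RNA was turned into 3′ end libraries (QuantSeq FWD kit, Lexogen) and read on a HiSeq instrument. The deposited table holds raw read counts per gene ID, 1 column per sample. STAR, DESeq2 and the build mm9 are named, without role or version, per the submitters' processing notes; the counting tool, annotation and strand use are not given in the sources used here. Symbols and coordinates came from GENCODE M21 (GRCm38), which held 99.1% of the IDs and may differ from the authors' annotation; printed positions are GRCm38, not mm9.

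Counts were fitted with edgeR 4.0.16 in R 4.3.3 (filterByExpr, minimum count 10, TMM, glmQLFit and glmQLFTest, group only, 24 samples) and p-values adjusted over 10159 genes by Benjamini-Hochberg, called under 0.05. SE was the absolute log2 fold change divided by the square root of F. Correlations used log2 CPM (prior count 2) and two-sided permutation tests with 100000 resamples. Intervals and floors cover counting error or sample spread only, and PCR copies were not marked. The fit and the correlation test were tested on simulated data. Members, lists and tests were chosen with earlier results of these data known. Named were all members, called genes of the 3 partner lists (at most 8 each), the alpha-actinins, and the 5 (Pdlim1) or 2 most alike genes with a mean of at least 20 CPM; Myh2, Eng and the AhR core motif were chosen after values were seen. The second gene of Pdlim4 is not reported here. The chi-square of the counts, per gene, was at least 2.33 in each of 133 within-group comparisons of 2 samples, so none agreed within sampling noise. Same-numbered samples of the groups deviated together no more than others (mean r −0.0059 over 11 pairs), so numbers were not taken as pairs. Alternatives were RLE scaling, DESeq2 1.42.0, limma 3.58.1 (voom), no filter, covariates, the replicate block and leaving out each sample.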

Additional observations from a re-analysis of the deposited data

How the results depend on the processing

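The log2 fold change of Pdlim1 ran from −0.68 to −0.45 over 12 alternatives and from −0.66 to −0.58 over 24 fits that left out a sample; the family was selected on this difference, so these values describe it and support nothing. No fit with a type 2B or fibroblast score was made. With the replicate block over 22 samples, 1 member and 138 genes were called, and the log2 fold change of Pdlim1 was −0.65; no paired call differed among the members. With the clock index as a covariate edgeR called 0 members (1 at an unadjusted p under 0.05) and 2 genes in all (1061 at an unadjusted p under 0.05), against 195 without it; the index differs between the groups, and the cause was not tested. The count of all genes was 318 with DESeq2, which was run on 27644 genes with its own filter and so changed tool and filter together, and, with covariates added after the data were seen, 110 with a blood score, 66 with a myelin score and 28 with Myh2, causes not tested. Leaving out 1 sample gave 141 to 254 genes and 1 to 1 members. Of the log2 fold changes of members under alternatives, 1 lost its call (Pdlim1 with the clock index) and 8 reversed, all of genes not called, while the others kept direction and side of the threshold, not always size. The 8 were Pdlim2 at 0.058 (clock index), 0.0033 (endothelial score), 0.055 (blood score), 0.12 (Myh2) and 0.027 (without air replicate 6), Ldb3 at 0.070 (clock index) and 0.050 (myelin score), and Pdlim4 at −0.058 (myelin score). Leaving out 1 sample moved Pdlim2 between −0.095 (without smoke replicate 2) and 0.027, Ldb3 between −0.059 (smoke replicate 11) and −0.011 (smoke replicate 2), Pdlim4 between 0.043 (smoke replicate 2) and 0.12 (smoke replicate 9), Pdlim7 between −0.11 and −0.052 (air replicate 2) and Pdlim5 between 0.12 (air replicate 11) and 0.30; Pdlim5 ran from 0.11 (blood score) to 0.43 (myelin score) over the other alternatives. Of the 7 genes called in the partner lists, Actn2, Bag3, Lasp1, Ky and Xirp1 lost their call with the replicate block (adjusted p from 0.0538 to 0.0702, edgeR), with log2 fold changes near those without it (−0.24, −0.20, −0.29, 0.40 and −0.70). Counts of correlations stayed at 0 under RLE scaling, a prior count of 0.5, without 2 samples and without smoke replicates 2 and 10. Depth is lowest for Pdlim2 and Pdlim4, at 27 to 59 counts per sample.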
